A study of Mus musculus with 16 samples.

Results

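The genes described here are 38 enzymes and carriers of energy metabolism, measured by RNA sequencing of the mouse spinal cord after spinal cord injury (SCI). They were chosen by gene symbol and comprise 15 genes of glycolysis, 2 of lactate dehydrogenase, 4 of lactate and glucose transport, 5 of the pyruvate dehydrogenase step and 12 of the TCA cycle, out of 24411 gene symbols in the files. All 38 were found and all 38 passed the filter on low values, a mean TPM (a level per transcript length, scaled to the same sum in every library) above 1 in at least 1 condition. The study asked how atorvastatin, a statin that inhibits cholesterol synthesis, alters the injured cord when it is started late. Female C57BL/6J mice received a 0.25 mm lateral compression at 12 wk of age and were treated daily for 4 wk, starting 2 wk after the injury. The SCI + Atorvastatin group (7 mice) was given 10 mg/kg in a vehicle of DMSO, PEG 400, Tween 80 and saline, and the SCI + Vehicle group (7 mice) was given the vehicle alone. Tissue, 5 mm of cord around the lesion, was taken 6 wk post-injury. The Uninjured Control group (2 mice of the same strain and sex, 12 wk old by the labels) had neither injury nor injections. Injury and vehicle therefore cannot be told apart in the comparisons against it. Age cannot be told apart from injury there either, as the SCI mice were taken 6 wk after an injury at 12 wk of age.

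Glycolysis splits glucose into pyruvate in the cytosol, and lactate dehydrogenase interconverts pyruvate and lactate, which crosses membranes through the monocarboxylate transporters. Pyruvate dehydrogenase admits pyruvate to the TCA cycle of the mitochondria. In the nervous system neurons and glia express different isozymes of the same step, such as Eno2 in neurons and Eno1 more broadly, and lactate released by glia is a fuel for axons.

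The promoters of 4 members are shown because the members with the largest rises after injury were Slc16a3, Slc16a1 and Hk2, while Eno2 was among those that fell most. Each window spans 250 bases before to 50 after a RefSeq gene start (GRCm38.p6), and capitals mark ACGTG on either strand, the core letters of hypoxia response elements.
Slc16a3 (chr11:120948817-120949116, plus strand): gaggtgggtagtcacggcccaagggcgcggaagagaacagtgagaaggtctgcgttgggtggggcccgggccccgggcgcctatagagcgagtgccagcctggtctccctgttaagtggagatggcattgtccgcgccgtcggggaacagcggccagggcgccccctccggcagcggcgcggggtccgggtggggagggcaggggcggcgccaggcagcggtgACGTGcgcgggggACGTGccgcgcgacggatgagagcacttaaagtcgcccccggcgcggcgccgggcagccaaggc
Slc16a1 (chr3:104638414-104638713, plus strand): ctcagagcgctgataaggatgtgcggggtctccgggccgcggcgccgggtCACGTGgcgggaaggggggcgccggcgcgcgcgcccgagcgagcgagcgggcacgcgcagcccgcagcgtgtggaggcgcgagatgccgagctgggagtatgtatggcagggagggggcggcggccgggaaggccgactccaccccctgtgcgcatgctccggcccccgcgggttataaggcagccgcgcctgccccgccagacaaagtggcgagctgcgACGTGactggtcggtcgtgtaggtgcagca
Hk2 (chr6:82774405-82774704, minus strand): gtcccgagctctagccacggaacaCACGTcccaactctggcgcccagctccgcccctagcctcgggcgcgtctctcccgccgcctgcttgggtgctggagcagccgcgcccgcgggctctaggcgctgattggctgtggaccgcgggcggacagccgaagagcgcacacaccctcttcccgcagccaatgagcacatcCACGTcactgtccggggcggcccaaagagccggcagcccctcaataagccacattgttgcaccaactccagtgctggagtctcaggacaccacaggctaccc
Eno2 (chr6:124769624-124769923, minus strand): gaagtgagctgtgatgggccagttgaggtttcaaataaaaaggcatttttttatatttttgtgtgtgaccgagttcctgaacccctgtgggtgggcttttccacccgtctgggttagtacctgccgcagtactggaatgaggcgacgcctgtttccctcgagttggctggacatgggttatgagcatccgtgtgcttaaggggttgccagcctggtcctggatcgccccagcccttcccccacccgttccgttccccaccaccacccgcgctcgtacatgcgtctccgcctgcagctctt
Counted from the first base of each window, the matches began at positions 224 and 237 in Slc16a3 and at positions 25 and 199 in Hk2. In Slc16a1 the matches at positions 51 and 52 overlap, reading CACGTG (the E-box motif), and a further match began at position 271. The Eno2 window held none. RefSeq windows were found for 35 of the 38 members, and 17 of them (48.6%) had ACGTG in at least 1 window, against 21.8% of 27025 genes. Of the 4 members called higher with vehicle, 3 had it (not Pfkl). Of the 10 called lower that have a window in the table, 6 had it (Gapdh, Hk1, Mdh1, Pdk2, Pgam1 and Pkm), as did 8 of the 21 not called. With atorvastatin it was found in 4 of 6 called higher, 7 of 15 called lower and 6 of 14 not called. CACGTG was found in 6 members (17.1%) and in 8.09% of all genes. Base composition differed as well, with a median GC content of 61.0% in member windows and 52.7% in all windows. A match is a description of letters and does not show binding.

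Libraries held 14823292 to 25579826 counts on genes, and a count of 0 allows up to 3 counts, or 0.117 to 0.202 CPM (counts scaled to library size), which covers counting error only. Both control libraries had counts in fewer genes (12732 and 12356) than any SCI library (16399 to 19338). Markers of other cells moved with injury. The summed TPM of 15 neuron genes was 13708 and 16832 in the controls against 9142 to 13860 with vehicle and 8313 to 11679 with atorvastatin, and 11 and 13 of the 15 were called lower in the respective comparisons. For 14 microglia and macrophage genes the sums were 374 and 597 in the controls against 4091 to 5790 with vehicle and 5040 to 7001 with atorvastatin, and 10 and 11 of the 14 were called higher. Liver genes were found in the controls, where 16 of them summed to 8414 TPM in replicate 1 and 1527 TPM in replicate 2, against 1.68 to 13.8 TPM in SCI mice, and skeletal muscle genes were high in SCI + Atorvastatin replicate 2 (6088 TPM) and SCI + Vehicle replicate 3 (1490 TPM). The part of these sources in the results below was not tested, and in tissue RNA fewer cells of a type and less RNA per cell cannot be told apart.

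**Figure D1:**
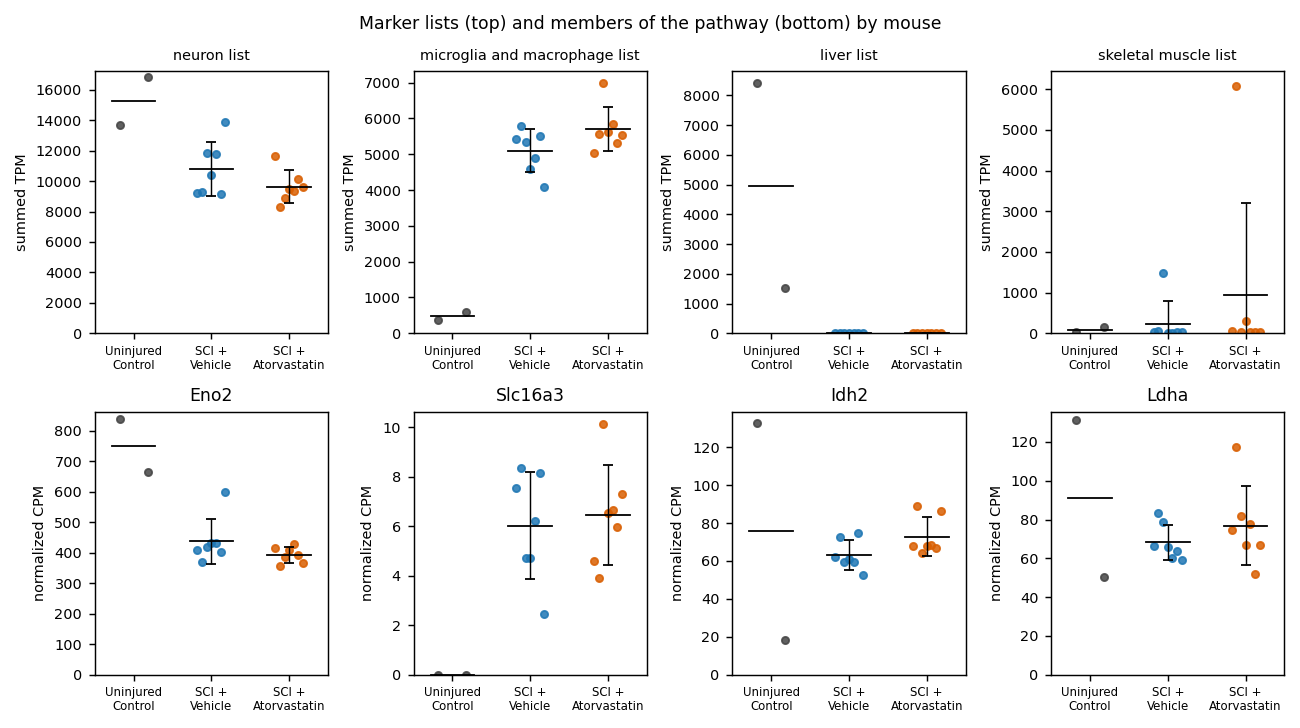
Top, summed TPM of 4 marker lists in each mouse, and bottom, normalized CPM of 4 members, by group on the horizontal axis. Points are mice, horizontal lines are group means and bars are ± SD (drawn for the groups of 7). The liver list is high in both controls, at 8414 and 1527 TPM, and Idh2 differs between them in the same order, at 133 and 18.4 CPM. Other members differ in the opposite order, such as Slc16a7 (not shown here) at 10.6 and 32.8 CPM, and a link was not tested.

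Against the controls, most members that were called were lower. With vehicle, compared with Uninjured Control, 16 of 38 members were called by edgeR's quasi-likelihood test (Benjamini-Hochberg adjusted p below 0.05 and a change of over 25%, that is, an absolute log2 fold change above 0.322), against 29.8% of the 16091 genes tested. Only 4 members were higher (19.9% of all genes were), and 12 were lower (9.91% of all genes were). With atorvastatin, 23 members were called, against 38.9% of all genes. Of these, 6 were higher (24.9% of all genes) and 17 lower (14% of all genes). The median log2 fold change of the members was -0.37 with vehicle and -0.39 with atorvastatin, while that of all genes was 0.17 and 0.21. Both comparisons use the same 2 control mice. Of the calls, 9 of 16 and 13 of 23 held whichever mouse was left out, and each of the others was lost in at least 1 of these fits. With voom and group quality weights 0 and 0 members were called (0.957% and 1.16% of all genes), with 6 and 10 at an unadjusted p below 0.05. The share of all genes at that unadjusted limit is not given for voom. With limma on log2(TPM + 1) Dlst, Gapdh, Hk1, Idh3a and Pkm were not called in either comparison, Mdh1, Pdk2 and Pgam1 not with vehicle, and Idh3b, Ldhb, Suclg1 and Tpi1 not with atorvastatin. That fit also called members that edgeR did not, Pfkfb3 and Sucla2 higher with vehicle and Eno1 lower with atorvastatin.

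**Figure D2:**
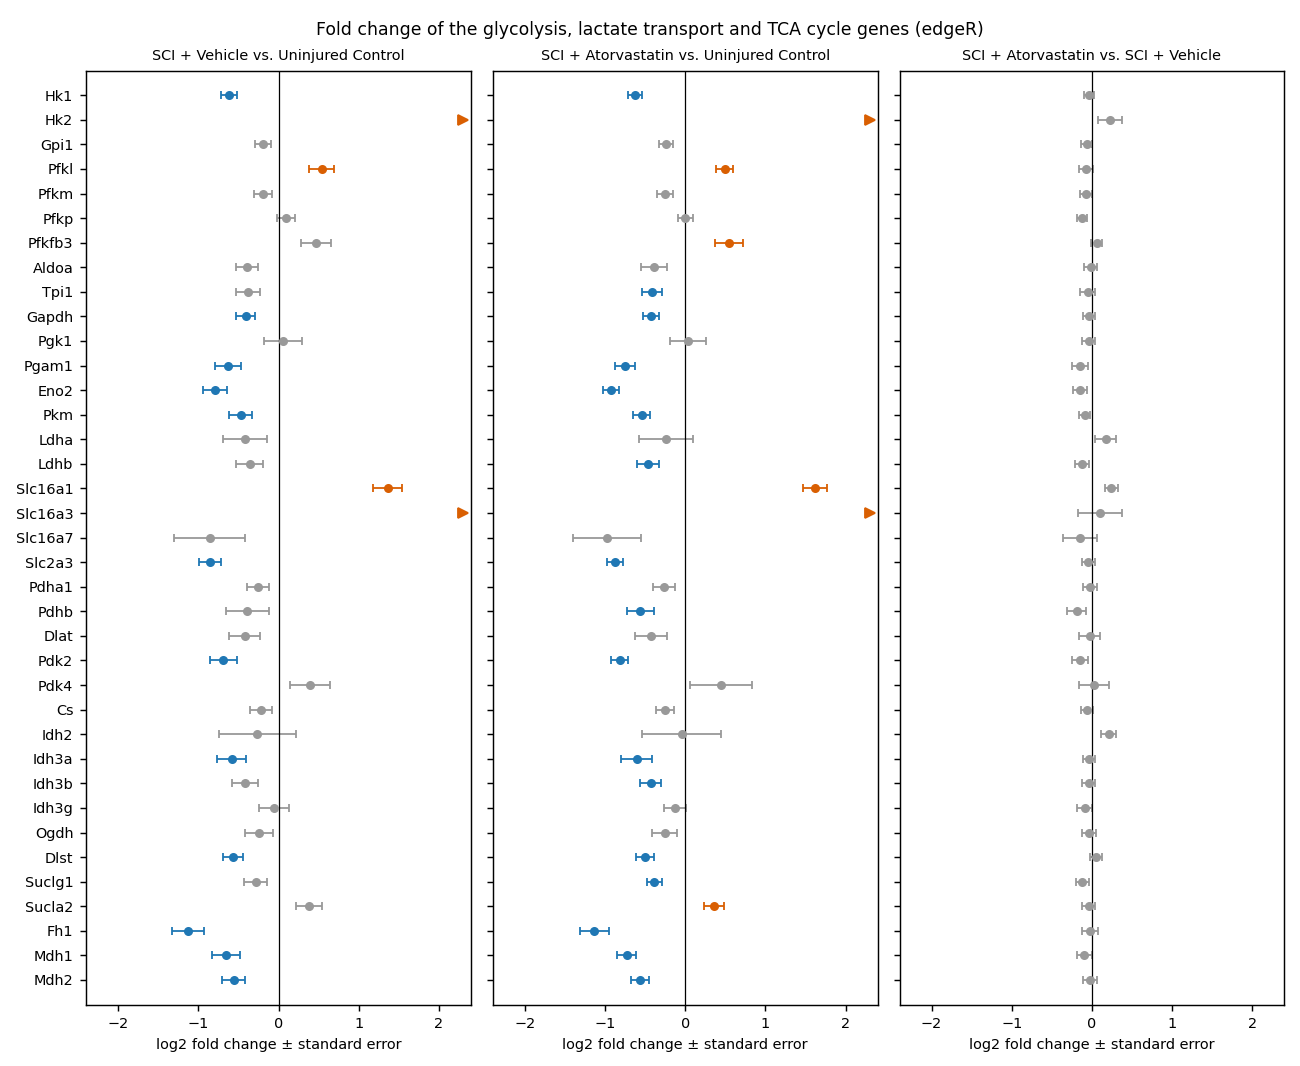
Log2 fold change (horizontal axis, edgeR) of 37 members (vertical axis) in the 3 comparisons, with bars of ± 1 standard error. Orange and blue points were called higher and lower, grey points were not called, and arrowheads mark values beyond the axis (Hk2 and Slc16a3, with counts of 0 in 1 and 2 control mice). Most members lie left of 0 in the first 2 panels and none is called in the third. Eno1 is left out because its counts were at or near 0.

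At glucose entry and phosphorylation Slc2a3 and Hk1 fell and Hk2 rose. Slc2a3, the high-affinity glucose transporter typical of neurons (chromosome 6, 122727809 to 122801640, GRCm38), had normalized CPM of 89.6 and 91.2 in the controls. In SCI + Vehicle mice the lowest, median and highest values were 46.5, 47.4 and 59.2 CPM, and in SCI + Atorvastatin mice 45.5, 48.0 and 54.3 CPM. All 14 SCI mice were below both controls, with log2 fold changes of -0.86 ± 0.13 (standard error, adjusted p = 0.00114, edgeR) and -0.88 ± 0.10 (adjusted p = 0.000156, edgeR).

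Hk1, the hexokinase that predominates in brain and spinal cord, also fell. Its level was 343.4 and 421.6 CPM in the controls, 231, 254 and 267 CPM (lowest, median and highest) with vehicle and 232, 246 and 264 CPM with atorvastatin. The log2 fold changes were -0.62 ± 0.10 and -0.63 ± 0.09 (standard errors, adjusted p = 0.00158 and 0.00042, edgeR). By TPM the control with 149.7 lay among the SCI mice, and with limma on log2(TPM + 1) Hk1 was not called (-0.34 and -0.37, adjusted p = 0.155 and 0.0755, limma). Hk2, the inducible hexokinase, moved the other way. It had 108 counts (5.42 CPM) in Uninjured Control replicate 1 and 0 counts in replicate 2, while SCI + Vehicle mice had 23.2, 41.7 and 47.1 CPM and SCI + Atorvastatin mice 34.5, 46.4 and 56.2 CPM. All SCI mice were above both controls, with fitted log2 fold changes of 3.86 ± 1.08 and 4.09 ± 1.07 (adjusted p = 0.0212 and 0.0121, edgeR). Against replicate 1 alone they were 2.84 and 3.08. Hk1 nevertheless remained the more abundant transcript per length, at 129 to 166 TPM against 8.67 to 23.2 TPM for Hk2 over the SCI mice.

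At the phosphofructokinase step, the main control point of glycolysis, Pfkl was the isoform that rose. Pfkl, the liver-type subunit, was at 64.9 and 62.2 CPM in the controls, at 79.8, 88.2 and 114 CPM with vehicle and at 80.1, 89.0 and 101 CPM with atorvastatin. Every SCI mouse was above both controls, with log2 fold changes of 0.54 ± 0.16 (adjusted p = 0.0259, edgeR) and 0.49 ± 0.11 (adjusted p = 0.0056, edgeR), although the first call was lost without Uninjured Control replicate 2 (0.51, adjusted p = 0.0549, edgeR). The deposited TPM of Pfkl did not follow its counts in the controls, at 36.2 TPM and 13.9 TPM. The muscle-type Pfkm was not called (-0.19 and -0.25), and its values of 294 to 400 CPM with vehicle and 287 to 372 CPM with atorvastatin overlapped the controls at 397 and 371 CPM. Pfkp, the platelet-type subunit, was at 173 and 212 CPM in the controls, 194 to 236 CPM with vehicle and 177 to 202 CPM with atorvastatin and was not called either. Pfkfb3, which makes the fructose 2,6-bisphosphate that activates phosphofructokinase, was called higher with atorvastatin (0.55 ± 0.18, adjusted p = 0.0339, edgeR) and not with vehicle (0.47 ± 0.19, adjusted p = 0.0802, edgeR). The control mice differed for this gene, at 119 and 67.1 CPM, and without replicate 2 the atorvastatin value was 0.18 (adjusted p = 0.233, edgeR). That call was also lost without any of 6 of the 7 SCI + Atorvastatin mice, replicates 1 to 4, 6 and 7 (adjusted p = 0.0513 to 0.0584, edgeR). Without control replicate 1 Pfkfb3 was called with vehicle too (0.94, adjusted p = 0.000548, edgeR).

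The later steps of glycolysis, from aldolase to pyruvate kinase, held members that fell or were not called, and none that was called higher. Eno2, the neuronal enolase (chromosome 6, 124760053 to 124769673, GRCm38), was at 838 and 666 CPM in the controls. With vehicle its lowest, median and highest values were 371, 420 and 598 CPM, and with atorvastatin they were 358, 393 and 430 CPM. The groups did not overlap, and the log2 fold changes were -0.79 ± 0.15 (adjusted p = 0.00314, edgeR) and -0.92 ± 0.10 (adjusted p = 0.000101, edgeR). The fall of Eno2 accompanied that of the neuron list. Pgam1, the phosphoglycerate mutase, was next, with log2 fold changes of -0.63 ± 0.16 and -0.75 ± 0.13 (adjusted p = 0.0153 and 0.00107, edgeR), from 126 and 152 CPM in the controls to 66.6 to 114 CPM and 68.5 to 96.0 CPM. Without Uninjured Control replicate 2 the vehicle value was -0.48 (adjusted p = 0.0763, edgeR).

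Gapdh and Pkm, the most abundant of the 38 by counts in the controls along with Aldoa, fell by smaller amounts. Gapdh, glyceraldehyde-3-phosphate dehydrogenase, had 1111 and 951 CPM in the controls, 716 to 968 CPM with vehicle and 680.0 to 865 CPM with atorvastatin. Its log2 fold changes were -0.41 ± 0.12 and -0.43 ± 0.10 (adjusted p = 0.0242 and 0.00659, edgeR), and without Uninjured Control replicate 1 they were -0.29 and -0.31, neither called. For Pkm, pyruvate kinase, the fold changes were -0.47 ± 0.14 and -0.54 ± 0.11 (adjusted p = 0.0254 and 0.00307, edgeR), becoming -0.21 and -0.28 without that mouse. The Pkm values of 951 to 1307 CPM with vehicle overlapped the controls at 1689.7 and 1207 CPM. The vehicle call of Pkm was lost without any of SCI + Vehicle replicates 1 to 3 (adjusted p = 0.0508 to 0.0597, edgeR). That of Gapdh was lost without SCI + Vehicle replicate 2 (adjusted p = 0.0592, edgeR). Tpi1, triosephosphate isomerase, passed with atorvastatin (-0.41, adjusted p = 0.0263, edgeR) and not with vehicle (-0.38, adjusted p = 0.0833, edgeR), and without Uninjured Control replicate 1 the former was -0.30. Without SCI + Vehicle replicate 7 Tpi1 was called lower with vehicle too (-0.47, adjusted p = 0.00886, edgeR). Gpi1, Aldoa and Pgk1 were not called, and Pgk1 differed by over 2-fold between the controls (242 and 113 CPM), with log2 fold changes of 0.058 and 0.033. Against replicate 2 alone Pgk1 was at 0.71 and 0.69, both called higher, and against replicate 1 alone at -0.40 and -0.42, the latter called lower. Aldoa, aldolase, had -0.39 in both comparisons. Without Uninjured Control replicate 2 it was called lower in both (-0.67 each, adjusted p = 0.00206 and 0.00131, edgeR), without replicate 1 it was at -0.055 and -0.048, and DESeq2 called it in both.

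Eno1, the widely expressed enolase, could not be tested on counts. It had 0 to 12 counts per mouse although its deposited TPM ran from 419 to 753, and Eno1b, a nearly identical retrogene copy with which reads can be shared, likewise had at most 29 counts. By TPM, Eno1 was at 753 and 725 in the controls, 449, 588 and 715 (lowest, median and highest) with vehicle and 419, 481 and 580 with atorvastatin. All 14 SCI mice were below both controls (exact permutation test, two-sided, p = 0.0556 in each comparison, the smallest that 7 against 2 mice can give). Limma on log2(TPM + 1) called Eno1 lower with atorvastatin and not with vehicle. The sum of Eno1 and Eno1b was 1068 and 902 TPM in the controls, 761 to 922 TPM with vehicle and 740.2 to 936 TPM with atorvastatin, so that both SCI groups overlapped the control range (exact permutation test, two-sided, p = 0.111 in each).

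**Figure D3:**
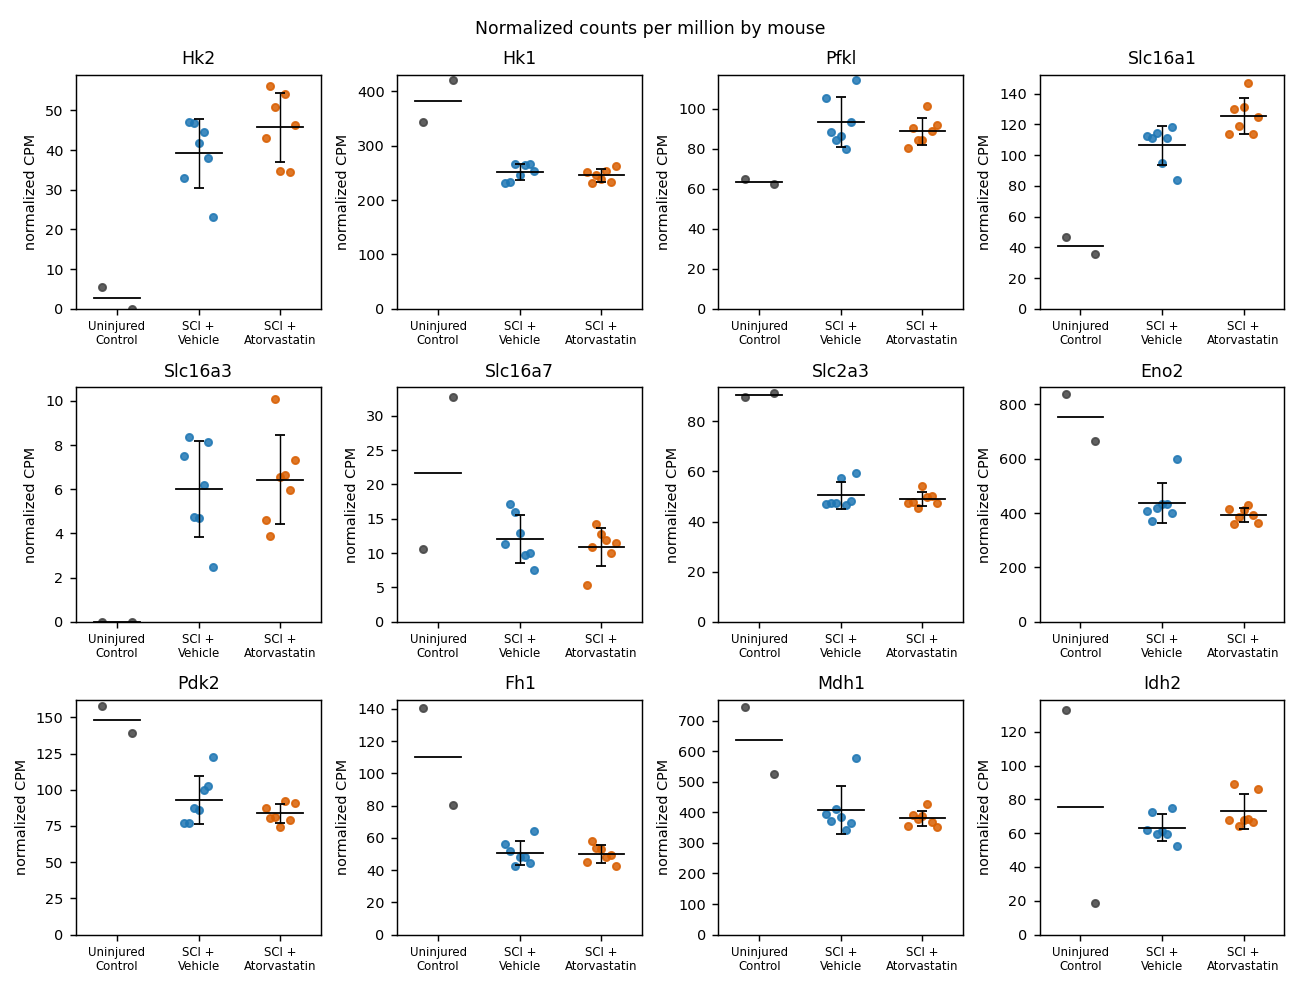
Normalized CPM (vertical axes, starting at 0) of 12 members in each mouse, by group. Points are mice, horizontal lines are means and bars are ± SD for the groups of 7. Hk2, Pfkl, Slc16a1 and Slc16a3 lie above both controls in every SCI mouse, Hk1, Slc2a3, Eno2, Pdk2 and Fh1 lie below, and for Slc16a7, Mdh1 and Idh2 at least 1 SCI mouse lies within or beyond the control range.

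Of the 3 lactate transporters, Slc16a3 and Slc16a1 rose and Slc16a7 was not called. Slc16a3, which encodes the lactate exporter MCT4 (chromosome 11, 120948480 to 120960868, GRCm38), had 0 counts in both controls and 56 to 204 counts in every SCI mouse. The lowest, median and highest normalized CPM were 2.46, 6.20 and 8.36 with vehicle and 3.89, 6.54 and 10.1 with atorvastatin. Against a floor of 3 counts per control library, this was a rise of at least 42.0-fold with vehicle and of at least 44.9-fold with atorvastatin. Slc16a3 passed the filter on low values only through the SCI groups, where it is high, so its call in the counts above supports nothing further. In absolute terms it stayed low, at 1.39 to 10.6 TPM over the SCI mice.

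Slc16a1, which encodes MCT1, the transporter of oligodendrocytes and endothelium among others (chromosome 3, 104638668 to 104658462, GRCm38), was the more abundant. It was at 46.7 and 35.5 CPM in the controls. Vehicle mice had 83.5, 111 and 118 CPM and atorvastatin mice 114, 125 and 147 CPM (lowest, median and highest), all above the controls. The log2 fold changes were 1.36 ± 0.18 and 1.62 ± 0.15 (adjusted p = 0.000448 and 3.98e-05, edgeR), the smallest adjusted p of any member in each comparison. Slc16a7, which encodes the high-affinity neuronal transporter MCT2, was not called. Its controls differed by about 3-fold, at 10.6 and 32.8 CPM, and SCI mice had 7.48 to 17.1 CPM with vehicle and 5.37 to 14.2 CPM with atorvastatin. The log2 fold changes of Slc16a7 were -0.86 ± 0.44 and -0.98 ± 0.42 (adjusted p = 0.172 and 0.094, edgeR), and without Uninjured Control replicate 1 they were -1.45 and -1.57, both called, whereas without replicate 2 they were 0.17 and 0.044.

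Lactate dehydrogenase, which joins glycolysis to the transporters, was not called in its A subunit. Ldha was at 131 and 50.5 CPM in the controls, 59.0, 65.8 and 83.3 CPM with vehicle and 51.9, 74.4 and 117 CPM with atorvastatin, so every vehicle mouse and every atorvastatin mouse lay between the controls. The log2 fold changes were -0.42 ± 0.28 and -0.24 ± 0.34 (adjusted p = 0.276 and 0.618, edgeR). Ldha was called lower without Uninjured Control replicate 2 in both comparisons (-0.96 and -0.78, adjusted p = 0.000967 and 0.0188, edgeR), and without replicate 1 it was at 0.42 and 0.62. Ldhb, the subunit that favours lactate oxidation, was at 740.3 and 491 CPM in the controls, 420, 481 and 638 CPM with vehicle and 412, 428 and 506 CPM with atorvastatin. It was called lower with atorvastatin (-0.46 ± 0.14, adjusted p = 0.0215, edgeR) and not with vehicle (-0.36 ± 0.17, adjusted p = 0.135, edgeR). Without Uninjured Control replicate 1 the atorvastatin value was -0.13, and without replicate 2 the vehicle value was -0.63. Leaving out SCI + Vehicle replicate 7, Ldhb was called lower with vehicle too (-0.44, adjusted p = 0.0442, edgeR).

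Among the 5 genes of the pyruvate dehydrogenase step, the kinase Pdk2 fell in both comparisons. Pdk2, one of the kinases that inhibit the complex, was at 158 and 139 CPM in the controls. Vehicle mice had 76.8, 87.2 and 123 CPM and atorvastatin mice 74.4, 81.5 and 92.4 CPM, all below the controls. By TPM the highest vehicle mouse, at 130.1, was above the lower control, at 128.8. The log2 fold changes were -0.69 ± 0.16 (adjusted p = 0.0099, edgeR) and -0.82 ± 0.10 (adjusted p = 0.000238, edgeR). Pdk4, the kinase induced by fasting in muscle and liver, was not called (0.40 and 0.44, adjusted p = 0.256 and 0.400, edgeR). Its values were 18.8 and 15.4 CPM in the controls, 18.8, 24.4 and 24.9 CPM with vehicle and 17.1, 19.2 and 46.0 CPM with atorvastatin, the last in the mouse with the highest skeletal muscle list. The subunit genes Pdha1, Pdhb and Dlat had negative fold changes between -0.26 and -0.56, of which that of Pdhb with atorvastatin was called (adjusted p = 0.0268, edgeR), and without Uninjured Control replicate 1 it was -0.094 (adjusted p = 0.604, edgeR). Dlat was called lower in both without that mouse (-0.60 and -0.61), and also without SCI + Vehicle replicate 7 (-0.52) and without SCI + Atorvastatin replicate 1 (-0.52). Without control replicate 2 Pdha1 was at -0.42 with atorvastatin and Pdhb at -0.74 with vehicle.

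The called genes of the TCA cycle were mostly lower, with 5 of 12 genes called lower and none higher with vehicle, and 7 lower and 1 higher with atorvastatin. Fh1, fumarate hydratase (chromosome 1, 175600374 to 175625635, GRCm38), had the largest fall of all members. It was at 140 and 80.3 CPM in the controls, 42.4, 48.3 and 64.2 CPM with vehicle and 42.5, 49.4 and 57.8 CPM with atorvastatin, and no SCI mouse reached the lower control by CPM. By TPM the lower control was at 95.8, and the highest vehicle and atorvastatin mice were above it, at 99.2 and 98.3. The log2 fold change was -1.13 in both comparisons, with standard errors of 0.20 and 0.18 (adjusted p = 0.00221 and 0.000891, edgeR), and fell in size to -0.68 and -0.67 without Uninjured Control replicate 1.

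Both malate dehydrogenases were lower. Mdh1, the cytosolic enzyme of the malate-aspartate shuttle, went from 746 and 525 CPM to 342.1 to 577 CPM with vehicle and 350.9 to 428 CPM with atorvastatin (-0.66 ± 0.18 and -0.73 ± 0.12, adjusted p = 0.0193 and 0.000962, edgeR). Mdh2, the mitochondrial enzyme, went from 380.0 and 307 CPM to 205 to 287 CPM and 199 to 253 CPM (-0.56 ± 0.14 and -0.57 ± 0.12, adjusted p = 0.0124 and 0.0036, edgeR). Without Uninjured Control replicate 1 the vehicle calls of Mdh1 (-0.38, adjusted p = 0.155, edgeR) and Mdh2 (-0.40, adjusted p = 0.0777, edgeR) were lost. Dlst, a subunit of the 2-oxoglutarate dehydrogenase complex, fell from 180.2 and 211 CPM to 107 to 143 CPM and 117 to 150 CPM, with log2 fold changes of -0.57 ± 0.13 and -0.50 ± 0.11 (adjusted p = 0.00708 and 0.00486, edgeR). Its partner subunit Ogdh was not called (-0.24 and -0.26), but was called lower in both comparisons without Uninjured Control replicate 1 (-0.51 and -0.53, adjusted p = 0.0353 and 0.0056, edgeR) and stood at 0.10 and 0.075 without replicate 2.

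Succinate-CoA ligase, whose beta subunit sets the nucleotide it uses, was split. Sucla2, the ADP-forming beta subunit, was at 78.9 and 103 CPM in the controls and at 103 to 144 CPM in the SCI mice. It was called higher with atorvastatin (0.36 ± 0.12, adjusted p = 0.0414, edgeR) and had a log2 fold change of 0.38 ± 0.17 with vehicle (adjusted p = 0.109, edgeR). The shared alpha subunit Suclg1 was called lower with atorvastatin (-0.39, adjusted p = 0.00761, edgeR) and had -0.29 with vehicle (adjusted p = 0.161, edgeR). Leaving out SCI + Vehicle replicate 7, Suclg1 was called lower with vehicle too (-0.36, adjusted p = 0.0285, edgeR). Without Uninjured Control replicate 1 the atorvastatin values were 0.19 for Sucla2 (adjusted p = 0.27, edgeR) and -0.29 for Suclg1 (adjusted p = 0.0562, edgeR). The Sucla2 call was also lost without any of SCI + Atorvastatin replicates 2 to 7 (adjusted p = 0.0508 to 0.0719, edgeR). Its vehicle value was 0.58 without Uninjured Control replicate 2. Sucla2 was called higher in both comparisons by limma on log2(TPM + 1) and by edgeR with all 3 groups in 1 fit.

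The isocitrate dehydrogenases showed how far the controls could differ. Idh3a, the catalytic subunit of the NAD-dependent enzyme, was called lower (-0.58 ± 0.18 and -0.60 ± 0.19, adjusted p = 0.0337 and 0.0288, edgeR), yet its controls were at 325 and 174 CPM, and SCI mice at 139 to 189 CPM reached above the lower control. Without Uninjured Control replicate 1 the Idh3a values were -0.068 and -0.084. Its vehicle call was lost without any of SCI + Vehicle replicates 2 to 5 (adjusted p = 0.0590 to 0.0609, edgeR). Its atorvastatin call was lost without any of SCI + Atorvastatin replicates 1, 6 and 7 (adjusted p = 0.0507 to 0.0525, edgeR). Idh3b was called lower with atorvastatin (-0.43, adjusted p = 0.0203, edgeR) and, over all mice, not with vehicle (-0.42, adjusted p = 0.0739, edgeR). Without SCI + Vehicle replicate 7 it was called lower with vehicle too (-0.49, adjusted p = 0.0237, edgeR). The vehicle value of Idh3b was -0.64 without Uninjured Control replicate 1, and its atorvastatin value was -0.17 without replicate 2. Idh3g and Cs, citrate synthase, were not called, except lower with atorvastatin without Uninjured Control replicate 2 (-0.35 and -0.45). Idh2, the mitochondrial NADP-dependent enzyme, was at 133 CPM in Uninjured Control replicate 1 and 18.4 CPM in replicate 2, and all 14 SCI mice (52.4 to 88.9 CPM) lay between them. Its direction therefore depended on the control, with 1.76 and 1.99 against replicate 2 alone and -1.09 and -0.87 against replicate 1 alone, where all 4 values were called. Among the 35 members with counts in both controls, 4 differed by over 2-fold between these mice and the median difference was 1.31-fold, against 1.59-fold over 11126 genes.

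Atorvastatin was then compared with vehicle among the injured mice. No member was called (absolute log2 fold change above 0.322 and unadjusted p below 0.001), against 0.106% of all genes. At an unadjusted p below 0.05, edgeR found 2 of 38 members, Slc16a1 and Idh2, against 7.03% of all genes, and no gene of the 16091 had an adjusted p below 0.05. DESeq2 found 2 (Slc16a1 and Pfkp), voom with group quality weights the same pair, and limma on log2(TPM + 1) found 5 (Slc16a1, Idh2, Pfkp, Pfkfb3 and Eno1). The share of all genes is given for edgeR only, so the counts from these other fits have no background beside them. The fold changes were small, between -0.19 and 0.24 without Eno1, with a median standard error of 0.086.

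Slc16a1 had 114, 125 and 147 CPM with atorvastatin against 83.5, 111 and 118 CPM with vehicle. All 7 atorvastatin mice were above the vehicle median, although the groups overlapped, with a log2 fold change of 0.24 ± 0.085 (adjusted p = 0.680, edgeR). Without SCI + Vehicle replicate 7, the lowest vehicle mouse, it was 0.19 (adjusted p = 0.929, edgeR). Idh2 had 64.3, 67.8 and 88.9 CPM against 52.4, 61.1 and 75.0 CPM, with 7 of 7 atorvastatin mice above the vehicle median and a log2 fold change of 0.21 ± 0.098 (adjusted p = 0.708, edgeR). Without SCI + Atorvastatin replicate 2, the mouse with the highest muscle list, the Idh2 value was 0.15 (adjusted p = 0.916, edgeR). Pfkp pointed downward, with 177, 195 and 202 CPM against 194, 205 and 236 CPM, 0 of 7 atorvastatin mice above the vehicle median and a log2 fold change of -0.12 ± 0.063 (adjusted p = 0.737, edgeR). Hk2 was at 0.22 ± 0.15 (adjusted p = 0.779, edgeR) and Ldha at 0.17 ± 0.13 (adjusted p = 0.816, edgeR), and without SCI + Atorvastatin replicate 2 Ldha was at 0.037. The fibroblast list was at 795 to 1573 TPM with atorvastatin, 192 to 1023 TPM with vehicle and 224 and 249 TPM in the controls, so the SCI groups overlapped. The lowest vehicle sums were 192 TPM in replicate 7 and 300 TPM in replicate 4, the library with the fewest counts. All 10 genes of the fibroblast list had higher fitted values with atorvastatin (median log2 fold change 0.64, 7 at an unadjusted p below 0.05, none called), as had 9 of 10 endothelium genes (median 0.23). The part of these lists in the values of Slc16a1 and Idh2 was not tested.

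Across the members, 30 of 38 had lower fitted values with atorvastatin than with vehicle, against 8101 of the 16091 genes tested. The 30 include Eno1, which had 0 to 12 counts per mouse. The median log2 fold change of the members was -0.043, against -0.0014 over all genes. A single vehicle mouse moved the count of lower members. SCI + Vehicle replicate 7 had the highest value of its group in 21 of 37 members, among them Eno2 (598 CPM), Mdh1 (577 CPM), Ldhb (638 CPM) and Pdhb (94.9 CPM), and the lowest in 7, among them Slc16a1, Slc16a3 and Hk2. That mouse also had the highest neuron list among SCI mice (13860 TPM) and the lowest microglia and macrophage list (4091 TPM) and fibroblast list (192 TPM). Without it, 23 of 38 members had lower values with atorvastatin and the median was -0.012, against 0.0 over all genes.

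Ratios of paired isozymes within each mouse do not depend on the scaling between libraries, and 8 pairs were compared on the log2 scale of TPM with a pseudocount of 0.1. For Hk2/Hk1 the controls had -5.98 and -11.2, vehicle mice averaged -3.20 ± 0.36 and atorvastatin mice -2.87 ± 0.29 (SD, n = 7 in each group). Every SCI mouse was above both controls in this ratio and likewise in Pfkl/Pfkm, Slc16a3/Slc16a7, Slc16a1/Slc16a7 and Pdk4/Pdk2 (exact permutation test, two-sided, p = 0.0556 for each, the smallest possible with 7 against 2, and 0.0889 adjusted over the 8 pairs). Slc16a1/Slc16a7 stood at 1.77 and -0.66 in the controls, and averaged 2.66 ± 0.43 with vehicle and 3.09 ± 0.31 with atorvastatin (SD, n = 7 in each). Control values were far apart in this pair and in Pfkl/Pfkm (-2.85 and -4.41), and for Hk2 and Slc16a3 a value of 0 in a control makes its ratio depend on the pseudocount. The Pfkl/Pfkm gap lies in the deposited TPM of Pfkl, 36.2 and 13.9 in the controls. By counts the controls were close for Pfkl (1293 and 1373) and for Pfkm (7905 and 8186). The ratios Pfkp/Pfkm, Eno1/Eno2 and Ldha/Ldhb overlapped the controls. Ldha/Ldhb was at -2.89 and -3.44 in the controls, and averaged -3.17 ± 0.29 with vehicle and -2.95 ± 0.37 with atorvastatin (SD, n = 7 in each).

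Between the treatments no ratio passed. The smallest p was that of Slc16a1/Slc16a7, which was higher with atorvastatin by 0.43 (exact permutation test over 3432 assignments, two-sided, p = 0.0542, 0.329 adjusted over the 8 pairs), followed by Hk2/Hk1 with 0.32 (exact permutation test, p = 0.0822, 0.329 adjusted). The TPM of Eno1 averaged 488 ± 59.3 with atorvastatin and 580.2 ± 99.7 with vehicle (SD, n = 7 in each, exact permutation test, two-sided, p = 0.0594), while Eno1b went the other way (344.1 ± 103 and 240.2 ± 98.9 TPM, exact permutation test, p = 0.081, n = 7 each). Their sum was 832 ± 60.0 and 820.4 ± 57.5 TPM (SD, n = 7 each, exact permutation test, p = 0.717).

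**Figure D4:**
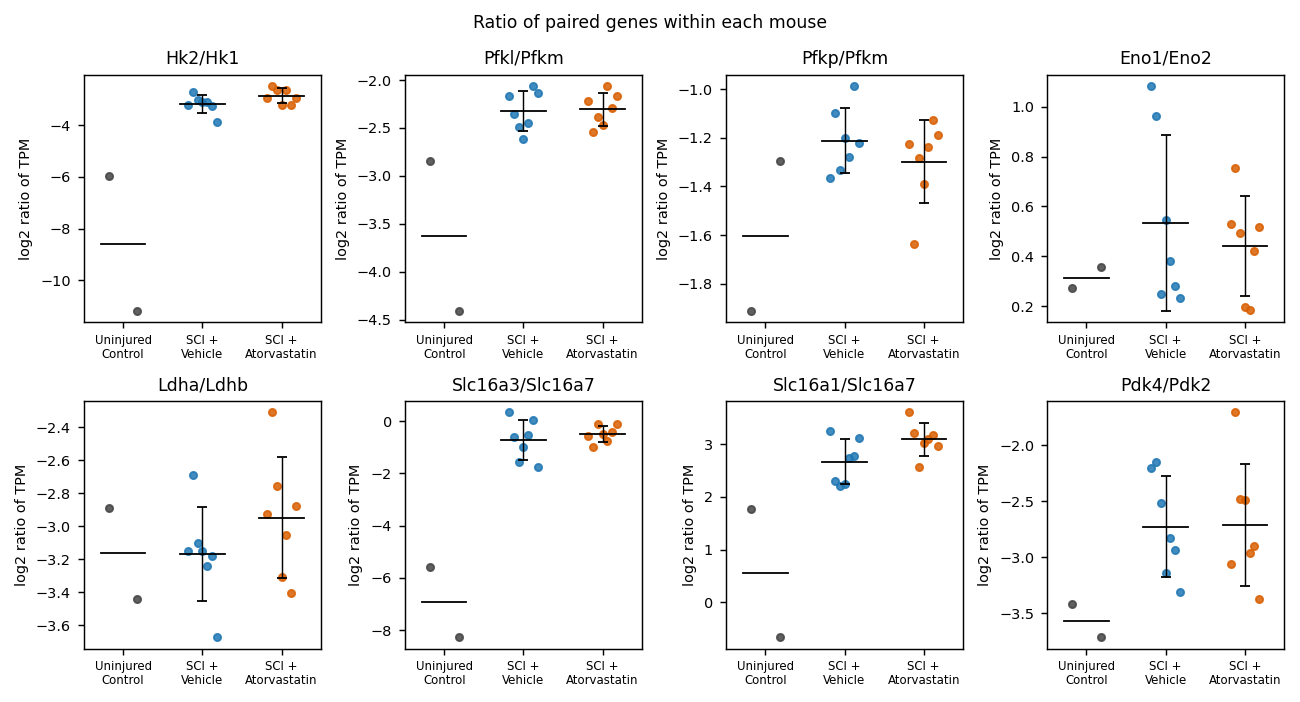
Log2 ratio of TPM of 8 gene pairs (vertical axes) in each mouse, by group. Points are mice, horizontal lines are means and bars are ± SD for the groups of 7. In 5 pairs every SCI mouse lies above both controls, as in Hk2/Hk1, where the controls are at -5.98 and -11.2, and the 2 SCI groups overlap in all 8 pairs.

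Summed levels per transcript length, given with no test, put these changes in proportion. The 15 glycolysis genes summed to 7896 and 8632 TPM in the controls (the lower and the higher), 6759 to 8126 TPM with vehicle and 6496 to 7367 TPM with atorvastatin, and the vehicle range overlapped the controls. The 12 TCA cycle genes summed to 2847 and 3189 TPM, 2245 to 2838 TPM and 2259 to 2542 TPM, respectively, so that no SCI mouse reached the lower control. The 4 transport genes, of which 2 had positive and 2 negative fold changes, summed to 74.6 and 99.2 TPM in the controls, 84.8 to 118 TPM with vehicle, which overlapped the controls, and 109 to 125 TPM with atorvastatin.

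Other genes of these pathways, 82 in number of which 77 were tested, followed a like division. With vehicle 6 were called higher and 18 lower, and with atorvastatin 7 higher and 21 lower, against the same shares of all genes as above. Hk3, a hexokinase of myeloid cells, had 0 counts in both controls and 111 to 492 counts with vehicle and 242 to 619 counts with atorvastatin, at least 112-fold and 109.7-fold higher, and likewise passed the filter only through the SCI groups. H6pd, the first enzyme of the pentose phosphate route of the endoplasmic reticulum, rose by 2.06 ± 0.43 and 2.22 ± 0.30 on the log2 scale (adjusted p = 0.00518 and 0.000303, edgeR), and Pfkfb2, a relative of Pfkfb3, by 1.61 ± 0.43 and 1.67 ± 0.45 (adjusted p = 0.0171 and 0.0138, edgeR). Pdk1, another pyruvate dehydrogenase kinase, was called higher as well (1.57 and 1.55), in contrast to Pdk2, although its controls differed at 565 and 108 counts.

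Among the other pathway genes that fell, Sdhb, a subunit of succinate dehydrogenase, had log2 fold changes of -0.82 ± 0.13 and -0.88 ± 0.16 (adjusted p = 0.00132 and 0.0020, edgeR). Acly, which makes cytosolic acetyl-CoA from citrate, had -0.68 ± 0.12 and -0.69 ± 0.10 (adjusted p = 0.0019 and 0.000518, edgeR), and Tkt, transketolase, -0.54 ± 0.09 and -0.51 ± 0.10 (adjusted p = 0.00147 and 0.00303, edgeR). Mpc2, a subunit of the mitochondrial pyruvate carrier, had -0.88 and -0.92. Fbp1, an enzyme of gluconeogenesis in the liver, had 816 and 144 counts in the controls and 0 to 15 counts in SCI mice, and its fall accompanied that of the liver list. Between the treatments none of the 77 was called by edgeR, and 2 had an unadjusted p below 0.05.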

How the data were processed

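Spinal cord RNA of 16 mice was sequenced on the authors' side from total RNA libraries. By the submitters' processing notes, reads were checked with FastQC 0.12.1, trimmed with Trimmomatic 0.38, aligned with STAR 2.5.4b to mm10 and quantified with RSEM 1.3.1. Per gene, the authors deposited raw counts as whole numbers and TPM, which they scaled for transcript length. The step that made whole-number counts is not given in the sources used here. The counts and TPM of some genes disagree (Eno1, Pfkl, Slc16a7). Whether counting used strand is not stated, so antisense overlap cannot be told apart. The paper gives other values than the labels for the control mice's age and the day of tissue isolation, and the labels were followed.

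Groups were taken from the labels. The 16091 genes whose mean TPM exceeded 1 in any condition were tested pair by pair on counts with edgeR 4.0.16 in R 4.3.3 (quasi-likelihood test after TMM normalization, p adjusted by Benjamini-Hochberg over all of them). CPM are TMM-normalized. Alternatives used DESeq2 1.42.0, limma 3.58.1 on log2(TPM + 1) and log2(TPM + 0.1), voom with group quality weights, other size factors and filters, a replicate block and each mouse left out in turn. Isozyme ratios used exact permutation tests. The fits were tested on simulated counts with the same spread for every gene, which did not hold the differences between the 2 real controls. In the comparisons against the controls edgeR recovered 90% and 88% of 2-fold changes there, and 7.77% and 6% of its calls were false. Mice of a group are separate animals by the labels. Then 2 settings were added after the data were seen, leaving out the 2 mice high in muscle genes and adding Eno1b to Eno1.

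The members, lists, pairs, motifs and tests were chosen with earlier results of these data known. All members were described by role, with values per mouse or as ranges for paired isozymes and the 4 members of smallest p per direction. Of the other pathway genes, the 4 called genes of smallest p per direction and comparison set the names, and Mpc2, Fbp1 and Pdk1 were partly chosen for their role. Of the 9 marker lists, those for oligodendrocyte (13601 to 20195 TPM over all mice), astrocyte (5078 and 6440 TPM in the controls, 9754 to 12371 TPM in SCI mice), endothelium (179 to 305 TPM) and red blood cell (61.4 to 3702 TPM) have their sums given here only, and Mbp, Gfap, Ly6c1 and Hba-a1 were their highest genes. Of the 10 astrocyte genes, 5 had positive and 5 negative fold changes in each comparison against the controls (median log2 fold change 0.08 and 0.09). Nefl, Ctss, Alb, Acta1 and Fn1 led the neuron, microglia and macrophage, liver, skeletal muscle and fibroblast lists. Promoter windows are from RefSeq (GRCm38.p6), and gene positions follow GRCm38. Plots were made in matplotlib 3.10.9.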

Additional observations from a re-analysis of the deposited data

Results flagged for a closer look

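In groups of 7 mice, 11 of 110 sets of values had a highest or lowest mouse set apart from the others by Dixon's criterion, which chance gives in about 1 of 20 sets. Of these, 4 were in SCI + Atorvastatin replicate 2, with TPM of 189.58 for Ldha, 28.49 for Pdk4 and 151.8 for Sucla2 and a skeletal muscle list of 6087.92 TPM. Ldha in the nearest other atorvastatin mouse was 132.9 TPM, and Pdk4 was 16.06 TPM. Muscle-type genes outside the 38 were also highest there, with 1507 counts of Eno3 (the muscle enolase) and 627 of Pgam2 (the muscle mutase). SCI + Vehicle replicate 7 stood apart for Ldhb (1293.06 TPM), Dlat (60.84 TPM) and Mdh1 (727.44 TPM). The other values set apart were Slc16a1 in SCI + Atorvastatin replicate 5 (80.99 TPM), the microglia and macrophage list in SCI + Atorvastatin replicate 3 (7000.8 TPM), the skeletal muscle list in SCI + Vehicle replicate 3 (1489.87 TPM) and the red blood cell list in SCI + Vehicle replicate 2 (3702.33 TPM). What set these mice apart was not tested.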

How the results depend on the processing

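With 2 control mice, counts of calls against them depend on the model. Members called with vehicle (16 in the report) and with atorvastatin (23) were 10 and 15 with limma on log2(TPM + 1), 10 and 15 with log2(TPM + 0.1) (limma called 27.7% and 39.3% of all genes on the former scale), and 0 and 0 with voom and group quality weights, where 0.957% and 1.16% of all genes were called, 6 and 10 members had an unadjusted p below 0.05, and the lowest adjusted p among members were 0.140 and 0.0811. The median of all genes, 0.17 and 0.21 in the report, was 0.49 and 0.52 with limma on log2(TPM + 1), 0.41 and 0.43 with voom and 0.53 in both with edgeR and no filter. Other pathway genes (24 and 28 in the report) came to 14 with vehicle by limma on log2(TPM + 1), 15 with log2(TPM + 0.1), and 2 and 5 with voom. The cause was not tested. For log2(TPM + 0.1) the share of all genes called is not given.

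With each mouse left out in turn, 13 to 21 and 20 to 28 members and 16 to 40 and 25 to 45 other pathway genes were called. The counts of members were 18 and 20 without Uninjured Control replicate 1 (47.7% and 60.3% of all genes), 20 and 28 without replicate 2 (48.5% and 61.1%), and 21 with vehicle without SCI + Vehicle replicate 7, and those of other pathway genes 40 and 43 without control replicate 1 and 45 with atorvastatin without control replicate 2. Over the members and alternatives 41 values had the opposite sign to the report's, Ldha and Slc16a7 among them, and 3 of the 41 were called, those of Idh2 without control replicate 1 (1.76 with vehicle, 1.99 with atorvastatin, but -1.09 and -0.87 without replicate 2) and of Pgk1 with atorvastatin without control replicate 2 (-0.42, and 0.69 without replicate 1). Without the 2 mice high in muscle genes, 14 and 21 members were called. DESeq2 called 19 and 24. For these 2 settings, and for each SCI mouse left out, the share of all genes called is not given. Whether those counts follow a shift over all genes therefore cannot be told. No member was called between treatments under any alternative run, and no isozyme ratio passed.

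Replicate numbers do not pair mice (correlations of same-numbered SCI mice -0.23 to 0.20, 1 of 7 over 0.1, and 1 of 14 mice closest to its own number). With the replicate block, which keeps 2 pairs against the controls, edgeR called 0 and 0 members and 0 and 0 other pathway genes, and 9 and 6 members had an unadjusted p below 0.05. The share of all genes called with the replicate block is not given. For the alternative fits the share of all genes at that unadjusted limit is not given either.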
